A study of Rattus norvegicus with 8 samples.

Results

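The potassium channels described here set how easily a neuron fires, and they were followed in RNA from the medial thalamus of rats conditioned by tracheal occlusion, a repeated brief block of the airway. They were taken as all non-control array probes whose gene name in the scanner files was Kcnj3, Kcnj6, Kcnj9, Kcnk3, Kcnk9, Kcnn1, Kcnn2, Kcnn3 or Kcnma1. This gave 14 probes for 9 genes of 35561 gene names, of 41012 distinct probes on the array, and 12 of the 14 passed a filter that kept 27154 probes. Both groups were conscious male Sprague-Dawley rats. The 4 occlusion rats underwent trials of 3 to 10 blocked breaths, each followed by about 30 s of recovery, in daily sessions for 10 days. The 4 surgical controls had the sessions without occlusions. On day 10 the rats were killed by anaesthetic overdose, within 10 min of the last trial, and the labels used here give no age. Whole medial thalamus was sampled, so fewer cells of a type and less RNA per cell cannot be told apart in any value below.

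GIRK channels, built from Kcnj3 (GIRK1), Kcnj6 (GIRK2) and Kcnj9 (GIRK3), are inward rectifiers that G-protein beta-gamma subunits open when a Gi/o-coupled receptor such as GABA-B is active, which slows firing. TASK channels, Kcnk3 (TASK-1) and Kcnk9 (TASK-3), are two-pore leak channels that outside acid and Gq-coupled receptors close, and in thalamic relay neurons they carry part of the resting leak that acetylcholine reduces. SK channels, Kcnn1 to Kcnn3, are opened by calcium through bound calmodulin and add to the pause after a spike. The BK channel Kcnma1 needs calcium and voltage together and shortens the spike itself.

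The probes are DNA oligonucleotides of 60 bases, and those on which the results turn are shown because a value here is the signal of 1 such oligonucleotide, not of a whole transcript. Positions come from the array design, on the rn3 build of the rat genome. They were not set against gene models of that build, so whether a probe lies in coding or noncoding sequence is not given. Capitals in the Kcnn3 line mark the longest run shared with the Kcnn2 probe (11 bases). In the lines of the Kcnma1 splice variants, capitals mark the run of 13 bases that the 2 probes share before they part.
Kcnj9, probe A_43_P12950, chr13:88500532-88500591, minus strand, first 30 bases: ggccctggagagggacctgaggagacccaa
Kcnj3, probe A_44_P452163, chr8:70761072-70761131, plus strand: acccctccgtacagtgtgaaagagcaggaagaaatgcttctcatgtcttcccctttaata
Kcnk3, probe A_42_P671477, chr6:25749801-25749860, minus strand: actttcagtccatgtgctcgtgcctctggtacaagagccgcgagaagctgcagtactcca
Kcnn1, probe A_43_P12018, chr16:19100585-19102139, plus strand: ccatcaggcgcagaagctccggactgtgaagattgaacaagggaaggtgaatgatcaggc
Kcnn3, probe A_43_P12020, chr2:181804405-181804464, plus strand: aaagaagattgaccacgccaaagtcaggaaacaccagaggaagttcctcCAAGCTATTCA
Kcnma1, probe A_44_P259947, chr15:949056-949115, plus strand: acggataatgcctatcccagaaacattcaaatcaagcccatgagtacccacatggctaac
Kcnma1 splice variant 1, probe A_44_P1071200, chr15:939939-939998, plus strand: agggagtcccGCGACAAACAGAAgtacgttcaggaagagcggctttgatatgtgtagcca
Kcnma1 splice variant 2, probe A_44_P278659, chr15:939949-942255, plus strand: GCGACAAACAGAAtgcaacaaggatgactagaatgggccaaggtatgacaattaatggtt
No member probe shared a run of 20 or more bases with any other of the 41012 probes. The Kcnn1 and splice variant 2 positions span more than 60 bases of genome, so the design does not place either in 1 unbroken stretch. For Kcnj3 the design places the 3 probes listed under NM_031610 on chromosome 8 and the one listed under U42423 on chromosome 3, so its positions are uncertain.

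Each rat was hybridised to 1 single-colour array, and the arrays lay on 2 slides with 2 arrays of either group on each. The share of spots well above background was 65.0% to 71.6%, the 75th percentile of processed signal ran from 1439 to 2216, and correlations between arrays lay between 0.948 and 0.985. Levels below are log2 processed signal minus that percentile on the same array, given in the order of replicates 1 to 4, and differences are occlusion minus control. Every member probe had n = 4 and 4, and genes of the lists with fewer arrays, after outlier-flagged spots were left out, are given with their own n. Of 14 markers of thalamic relay neurons 11 were measured, and 3 of them, Slc17a6, Prkcd and Calb2, were bright enough to saturate on at least 1 array. Arrays limit the precision by their number, and the rats were housed in pairs, with no label saying which rats shared a cage.

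None of the 9 channel genes passed the test between the groups. By limma with Benjamini-Hochberg adjustment 0 of the 12 kept probes, and 0 of all 27154 (0%), had an adjusted p under 0.05, the smallest adjusted p anywhere being 0.403. At an unadjusted p under 0.05 stood 3 member probes (25%), for Kcnj9, Kcnj3 and Kcnk3, all higher on occlusion arrays, against 11.1% of all kept probes in either direction, 6.48% higher and 4.61% lower. Of the 12 probes 10 had a mean difference above 0, against 53.6% of all kept probes, and their median difference was 0.29 against 0.02. Kcnj3 and Kcnma1 count more than once among them. By the brightest probe of each gene, 7 of 9 were higher, with a median difference of 0.27. By that count 2 (22.2%) stood at an unadjusted limma p under 0.05, since the Kcnj3 probe named here was not its brightest. With so few probes these shares are a description and were given no test. The unadjusted count of member probes fell from 3 to 1 without control 3, without occlusion 2, or on slide 1 alone.

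**Figure D1:**
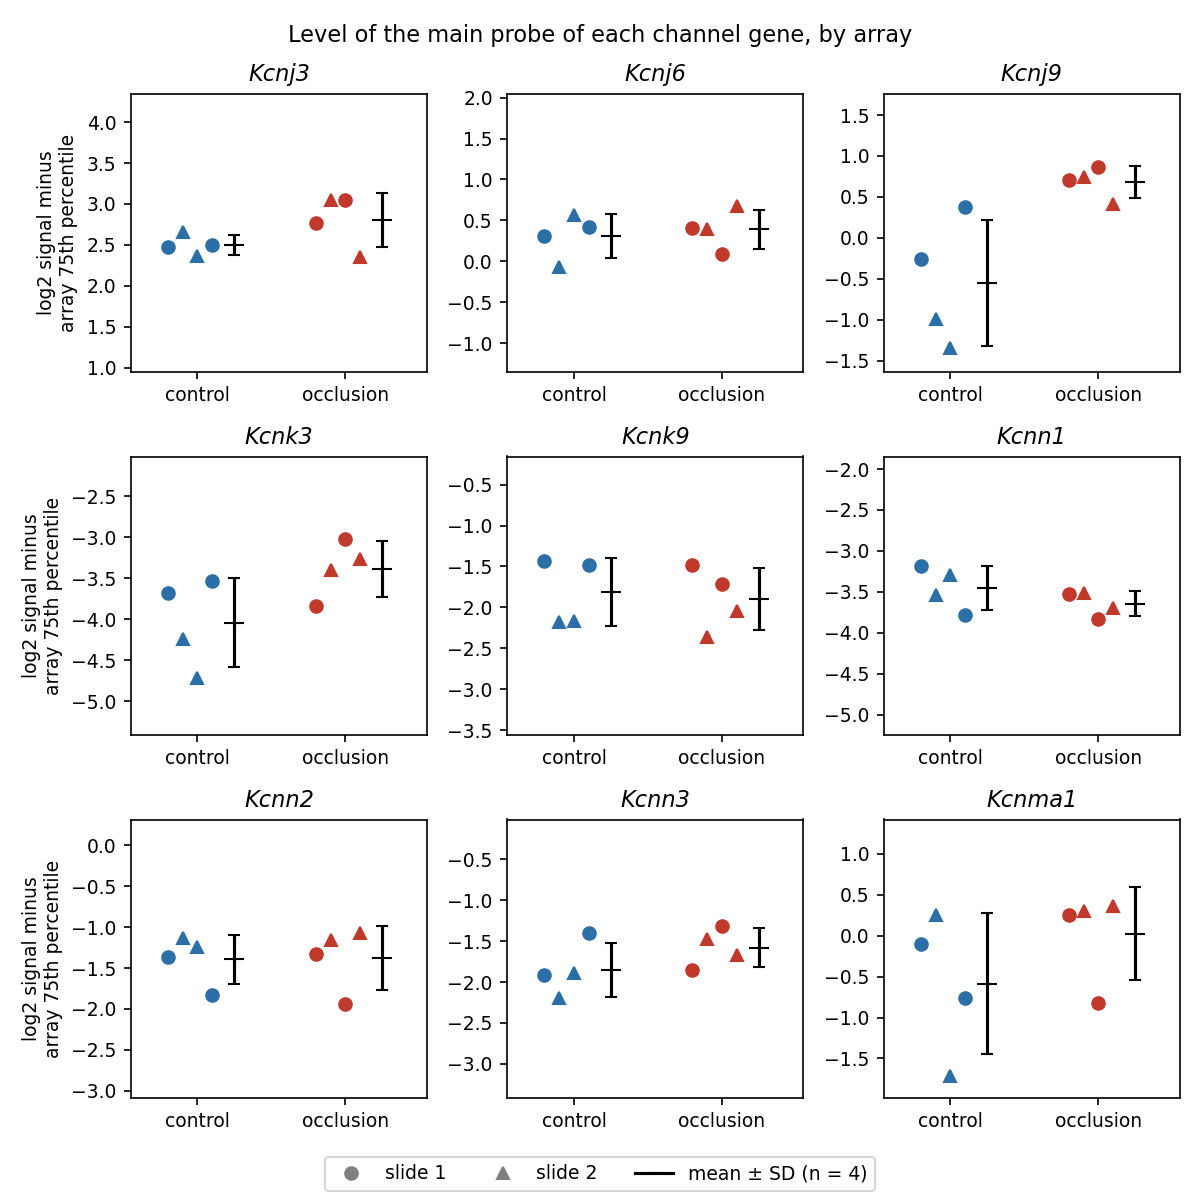
Each panel shows the brightest probe of 1 channel gene on the 8 arrays, as log2 processed signal minus the array's 75th percentile, with circles for slide 1, triangles for slide 2 and the mean ± SD (n = 4) beside each group. All panels span the same log2 range. For Kcnj9 alone among these 9 the 4 occlusion arrays (0.41 to 0.86) lie above the 4 control arrays (-1.34 to 0.37).

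Kcnj9, the GIRK3 subunit, which joins other GIRK subunits and lowers their surface level, showed the widest separation. Its level was 0.71, 0.75, 0.86 and 0.41 on the occlusion arrays and -0.25, -0.99, -1.34 and 0.37 on the control arrays. The occlusion arrays lay close together while the controls were spread, and control 4 came within a few hundredths of the lowest occlusion array. The means were 0.68 ± 0.19 (SD, n = 4) and -0.55 ± 0.77, a difference of 1.24 (SE 0.35, 95% interval 0.44 to 2.03, 2.36-fold) with a limma adjusted p of 0.403. Groups that did not overlap were found for this 1 of 12 member probes and for 6.71% of all kept probes, 3.9% with occlusion higher and 2.82% with occlusion lower. The difference was 0.72 on slide 1 and 1.75 on slide 2, and 1.55 without control 4. The unscaled processed signal gave the same picture, with 2640, 2652, 2611 and 2953 against 1560, 889, 756 and 2530.

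Kcnj3, the GIRK1 subunit, was read by 4 probes. Its brightest, A_43_P12612, read 2.76, 3.05, 3.04 and 2.35 on occlusion arrays and 2.47, 2.66, 2.37 and 2.49 on control arrays. Occlusion 4 was the lowest of all 8 arrays and the other 3 occlusion arrays were the highest. The difference was 0.30 (SE 0.17, limma adjusted p = 0.527). Probe A_44_P452163, shown above, read 0.06, 0.36, -0.49 and -0.26 against -0.66, -0.38, -1.16 and -0.69. Here only occlusion 3 fell within the control range. Its difference was 0.64 (SE 0.23, limma adjusted p = 0.403), with 0.46 and 0.82 on slides 1 and 2.

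The other 2 Kcnj3 probes were dim. A_44_P452282, well above background on 4 occlusion and 3 control arrays, differed by 0.04 (SE 0.37), with signs that differed between the slides (-0.57 and 0.65). A_44_P247906, the probe listed under U42423, was well above background on 1 array of each group and was not tested. Its levels ran from -5.67 to -3.79 on occlusion and from -6.14 to -5.28 on control arrays. The 2 bright Kcnj3 probes thus pointed the same way and neither passed.

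Kcnj6, the GIRK2 subunit, which can form channels by itself, differed by less than its error. Probe A_44_P182270 read 0.41, 0.39, 0.09 and 0.67 on occlusion and 0.31, -0.07, 0.57 and 0.42 on control arrays, and the groups overlapped almost fully. The difference was 0.08 (SE 0.17, limma adjusted p = 0.894), and its 95% interval of -0.32 to 0.48 does not show equality. The probe for the Kir3.2B splice form, A_44_P208113, was not well above background on any of the 8 arrays. The Kir3.2B probe therefore has no measured level or fold in either group.

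Of the TASK genes, Kcnk3 was the one at an unadjusted p under 0.05. Its level was -3.84, -3.40, -3.02 and -3.27 on occlusion and -3.68, -4.24, -4.71 and -3.54 on control arrays. Controls 2 and 3 lay below every occlusion array, whereas controls 1 and 4 lay above occlusion 1. The difference was 0.66 (SE 0.28, 95% interval 0.01 to 1.31, 1.58-fold) with a limma adjusted p of 0.446. It came mostly from slide 2, with 1.14 there and 0.18 on slide 1. Without control 3 it was 0.44, and with normexp background correction, which adds an offset that shrinks differences of dim probes, 0.30.

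Kcnk9, which forms TASK-3 and can pair with TASK-1, overlapped between the groups. It read -1.48, -2.36, -1.71 and -2.05 on occlusion and -1.43, -2.18, -2.16 and -1.49 on control arrays. The 4 lowest readings were those of the 4 arrays of slide 2, and slide 2 lay 0.66 below slide 1. The difference between the groups was -0.08 (SE 0.25, 95% interval -0.66 to 0.50, limma adjusted p = 0.931). The difference between the Kcnk3 and Kcnk9 responses was not tested.

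The SK genes gave small differences. Kcnn1 read -3.52, -3.52, -3.83 and -3.70 on occlusion and -3.19, -3.54, -3.29 and -3.78 on control arrays. Control 1 and control 3 stood above the rest. Its difference was -0.19 (SE 0.16, limma adjusted p = 0.662), the lowest of the 12, and nearly the same on both slides (-0.19 and -0.19). It was -0.11 without control 1 and -0.31 without control 4. A further probe, A_44_P609103, whose description names SK1 but whose gene name is TC540919, lay outside the naming rule and differed by 0.09 (SE 0.12).

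Kcnn2, the SK2 subunit, read -1.33, -1.16, -1.94 and -1.07 on occlusion and -1.37, -1.13, -1.25 and -1.82 on control arrays. Occlusion 3 and control 4 were low and the other 6 arrays lay between -1.37 and -1.07. The difference was 0.02 (SE 0.23, limma adjusted p = 0.986). Kcnn3, the SK3 subunit, read -1.85, -1.48, -1.31 and -1.67 against -1.91, -2.19, -1.89 and -1.40. Controls 1, 2 and 3 were its 3 lowest arrays, and control 4 was its second highest. The difference was 0.27 (SE 0.19, limma adjusted p = 0.616), with 0.07 on slide 1 and 0.47 on slide 2, and was 0.16 without control 2 and 0.42 without control 4.

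Kcnma1, the BK channel, varied among arrays more than it differed between groups. Probe A_44_P259947 read 0.26, 0.30, -0.82 and 0.36 on occlusion and -0.11, 0.25, -1.72 and -0.76 on control arrays. Occlusion 3, control 3 and control 4 were low and the other 5 arrays lay between -0.11 and 0.36. Its SD over the 8 arrays, 0.75, was larger than that of 92.2% of kept probes. The difference was 0.61 (SE 0.45, limma adjusted p = 0.629) and was 0.23 without control 3. Probe A_43_P15328 read -0.41, 0.16, -0.99 and -0.38 against -0.44, 0.01, -1.91 and -1.45, and differed by 0.55 (SE 0.43, limma adjusted p = 0.659). That value was 0.22 without control 3, 0.36 without occlusion 2 and 0.86 without control 2.

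Beyond the naming rule, 3 more probes were described as Kcnma1 or similar to it, and were taken up after the values above had been seen. The splice variant 1 probe read -4.01, -3.92, -4.12 and -3.86 on occlusion and -4.03, -3.87, -5.47 and -4.57 on control arrays, and the splice variant 2 probe 1.77, 1.99, 1.05 and 1.53 against 1.74, 2.11, 1.09 and 1.06. The probe named LOC498438 read -1.64, -0.89, -2.34 and -1.46 against -0.89, -0.71, -3.28 and -2.48. On each of these 3 probes and both Kcnma1 probes, occlusion 3, control 3 and control 4 were the 3 lowest arrays. The same 3 arrays were lowest for 1.77% of 26054 kept probes with a value on every array. The differences between the groups were 0.51 (SE 0.32) for splice variant 1, 0.08 (SE 0.29) for splice variant 2 and 0.26 (SE 0.59) for LOC498438.

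**Figure D2:**
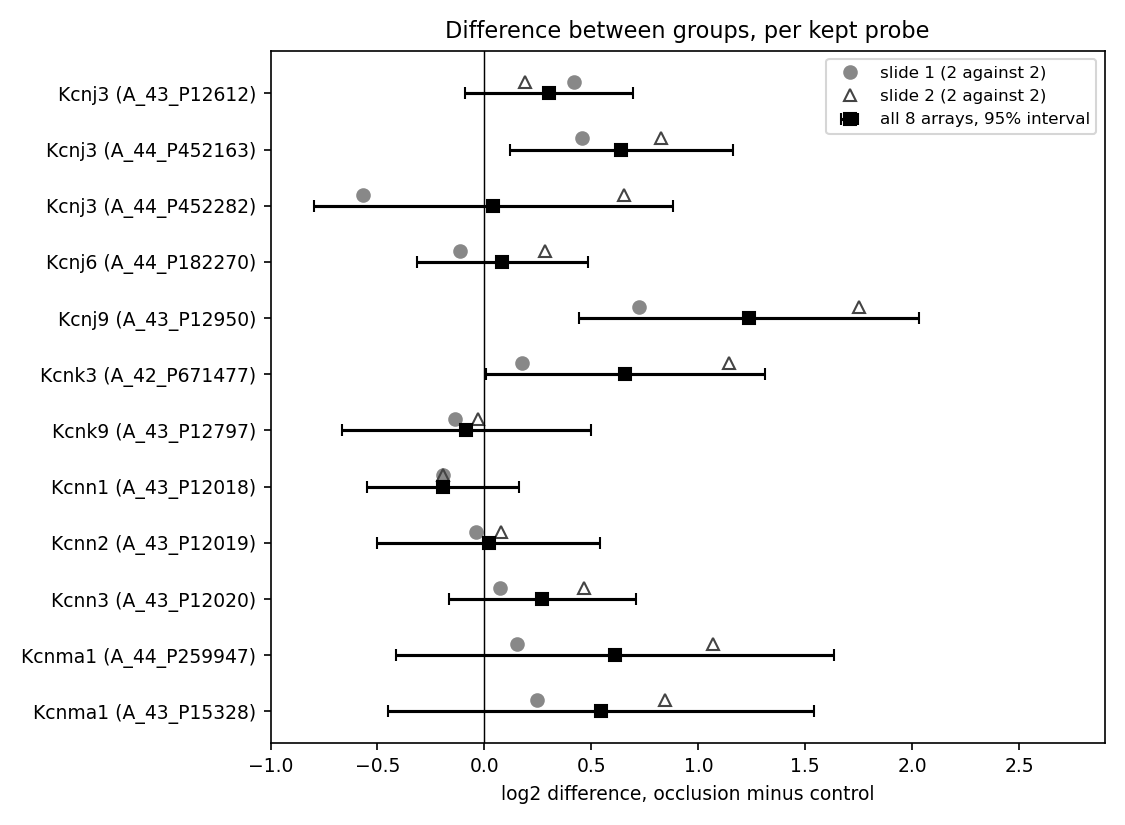
The horizontal axis is the log2 difference, occlusion minus control, for each of the 12 kept probes; squares with bars are the estimates from all 8 arrays with 95% intervals, circles the difference within slide 1 and triangles that within slide 2. The intervals of Kcnj9, of Kcnj3 probe A_44_P452163 and of Kcnk3 lie above 0 before adjustment, and the slide 2 value lies to the right of the slide 1 value for most probes, but to the left for Kcnj3 probe A_43_P12612 (0.19 against 0.42), while for Kcnn1 the slides coincide.

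Markers of cell types and neighbouring nuclei moved over the same arrays, and their part in the channel values was not tested. All 11 measured relay neuron markers of 14 listed were higher on occlusion arrays, 0 passed, and their mean level ran from 0.97 to 1.55 on occlusion and from -0.02 to 1.12 on control arrays. Controls 1, 2 and 3 were the 3 lowest arrays of this mean, as they were for Kcnj9 and Kcnn3 and for 7.14% of kept probes. The relay mean was 0.16 on control 2 and -0.02 on control 3, the arrays on which Kcnj9 and Kcnk3 were lowest. It was 1.12 on control 4, where Kcnj9 came nearest to the occlusion arrays. Kcnk3 departed from the relay mean on other arrays. It was next lowest on occlusion 1 (-3.84), where the relay mean was highest (1.55). Its highest level was on occlusion 3 (-3.02), where the relay mean was 0.97. All 9 measured markers of reticular and other GABA neurons, of 10 listed, were lower on occlusion arrays, with array means from -3.61 to -0.48 against -1.61 to 0.68. Gad1, the GABA-synthesising enzyme, read -2.69, -3.14, -0.90 and -1.83 on occlusion and 0.01, 0.23, 1.99 and -0.70 on control arrays.

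Most habenula markers were low on the arrays on which Kcnma1 was low. Of 8 listed 7 were measured, 5 higher and 2 lower on occlusion arrays, and 0 passed. Their mean was -1.21, -0.51, -3.64 and -0.63 on occlusion and -0.31, 0.18, -4.19 and -2.60 on control arrays, so that occlusion 3, control 3 and control 4 were again the lowest. Gpr151, a receptor largely restricted to the habenula, was at -5.06, -6.32 and -2.42 on these 3 arrays and between -0.64 and 1.31 on the other 5. For 6 of the 7 markers these were the 3 lowest arrays, but not for Calca, which read -0.87, -1.31 and -1.02 on them and -1.45 to -0.66 on the other 5. For other cell types the array means cover the markers with a value on all 8 arrays, and the counts all kept markers. The mean of 8 oligodendrocyte markers ran from 1.38 to 2.10 on occlusion and from 1.85 to 2.66 on control arrays, with 9 of 11 kept markers lower on occlusion arrays. The mean of 7 astrocyte markers ran from 1.43 to 1.86 against 1.60 to 2.02 (5 of 9 higher), that of 9 microglial markers from -0.04 to 0.32 against 0.12 to 0.42 (4 of 9 higher) and that of 6 endothelial markers from -1.21 to -0.73 against -1.29 to -0.80 (6 of 7 higher). The mean of 7 choroid plexus markers ran from -2.01 to -1.19 against -2.77 to -0.96 (3 of 7 higher). The mean of 4 markers of cortex and hippocampus, which should be low in thalamus, ran from -3.64 to -3.31 against -3.86 to -2.90 (4 of 5 higher). The kept marker outside that mean, Cux2, had no value on occlusion 1. It was not low, at 0.79 to 1.28 on the other occlusion arrays and 0.33 to 1.11 on control arrays. The 1 lower gene of that list, Emx2, named after its values were seen, had the largest difference in it, -2.77 (SE 0.52, limma adjusted p = 0.403). Emx2 is part of the mean of 4, and it was not as low as that mean on control arrays. It read -3.99, -3.18, -3.20 and -2.85 on occlusion and -0.50, -0.55, 0.83 and -1.91 on control arrays. Groups did not overlap for 2 of the 5 kept genes of that list, against 6.71% of all kept probes. These were Emx2 and, with occlusion higher, Prox1 at 1.55 (SE 0.40). In none of these lists did a gene pass (smallest limma adjusted p 0.403).

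**Figure D3:**
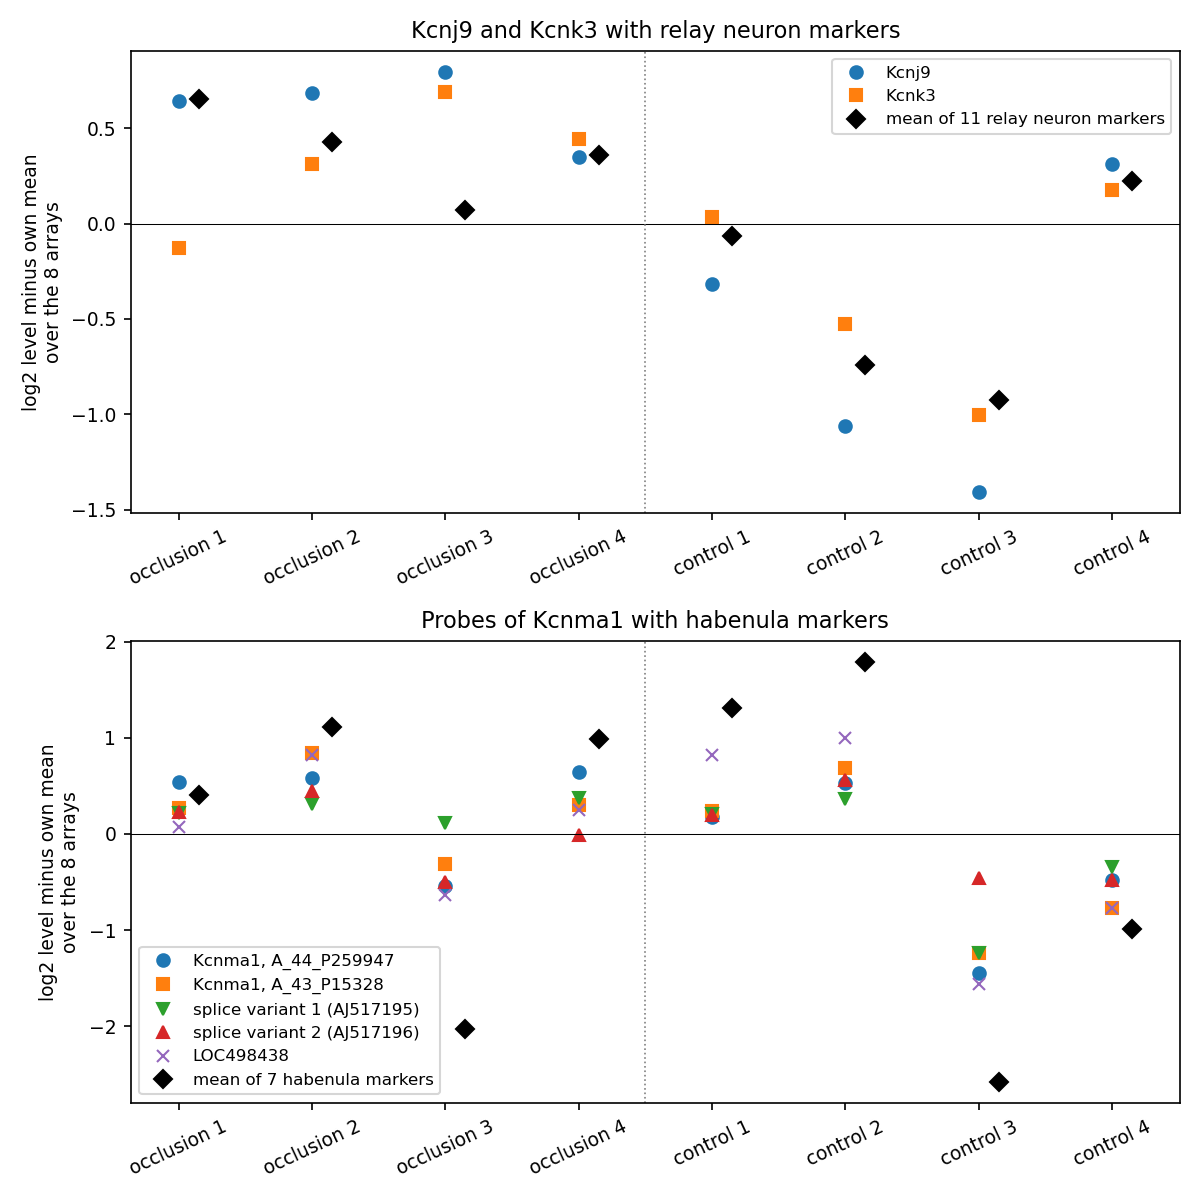
Each point is 1 array, and each series is its log2 level minus its own mean over the 8 arrays; diamonds are the mean of the marker list. In the upper panel Kcnj9, Kcnk3 and the relay markers are all lowest on controls 2 and 3. Kcnk3 is next lowest on occlusion 1, where the relay mean is highest. In the lower panel the 5 probes of Kcnma1 or a like sequence and the habenula mean are all lowest on occlusion 3, control 3 and control 4.

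Genes whose pattern over the 8 arrays was nearest to the 3 most variable members were taken by a rule. It took the smallest root mean square gap after each probe was centred on its own mean. Of 25614 probes compared, only those with a gene symbol could be named, and the member's own gene was left out. For Kcnj9 (SD 0.84) these were Gins3, a replication factor, with a gap of 0.12, Rgs3, a regulator of G-protein signalling, with 0.14, and Ccdc136 with 0.15. For Kcnma1 they were Vav3 (0.22), Slc24a2, a sodium-calcium-potassium exchanger (0.25), and Cplx1, a complexin of transmitter release (0.26). For Kcnk3 (SD 0.55) they were Aff2 (0.15), Ache, acetylcholinesterase (0.16), and Stk32c, a kinase (0.17). Rgs3 read 2.32, 2.21, 2.05 and 1.98 on occlusion and 1.14, 0.45, 0.32 and 1.92 on control arrays. It had the same 3 low controls as Kcnj9, which follows from its choice by nearness to Kcnj9 over these arrays.

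The channel relatives gave no call either, and in each list below 0 genes passed, the smallest limma adjusted p being 0.403. Of 9 other inward rectifiers 7 were higher and 2 lower, with a median difference of 0.16 against 0.02 over all kept probes. Kcnj12 stood at 0.79 (SE 0.31) and Kcnj11, the pore of ATP-sensitive channels, at 0.33 (SE 0.18, n = 3 and 4), against Kcnj4 at -0.58 (SE 0.37) and Kcnj5, the GIRK4 subunit, at -0.35 (SE 0.21). Of 7 other two-pore channels 6 were higher and 1 lower (median 0.18). Kcnk4, the mechanically gated TRAAK channel, stood at 0.998 (SE 0.34) and Kcnk12 at 0.66 (SE 0.29), against Kcnk6 at -0.23 (SE 0.26) and Kcnk13 at 0.01 (SE 0.29). Kcnk4 read 0.73, 0.54, 0.48 and 0.44 on occlusion and -0.12, -0.73, -1.37 and 0.43 on control arrays, again with control 4 beside the occlusion arrays.

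Among 6 other calcium- or sodium-activated channels and auxiliary subunits 4 were higher and 2 lower (median 0.33). Kcnmb4, the neuronal BK beta subunit, stood at 0.96 (SE 0.40) and Kcnt2, a sodium-activated channel, at 0.57 (SE 0.27), against Kcnt1 at -0.24 (SE 0.16) and Kcnn4, the intermediate-conductance channel, at -0.23 (SE 0.20). Of 14 calcium sources and sensors 12 were higher and 2 lower (median 0.15). The T-type channel Cacna1g stood at 0.62 (SE 0.21) and the L-type channel Cacna1c at 0.68 (SE 0.25), against the ryanodine receptor Ryr2 at -0.61 (SE 0.36) and Cacna1h at -0.18 (SE 0.32). Cacna1g is also one of the relay markers.

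Receptors that open GIRK channels divided evenly, with 11 of 22 higher and 11 lower (median 0.01). The metabotropic glutamate receptor Grm2 stood at 0.89 (SE 0.26) and the neuropeptide Y receptor Npy1r at 1.11 (SE 0.36), against the dopamine receptor Drd2 at -0.80 (SE 0.24) and the adrenergic receptor Adra2c at -0.86 (SE 0.26). Of 17 G-protein subunits, RGS proteins and GIRK partners 11 were higher and 6 lower (median 0.19). Gnao1, the main Go alpha subunit of neurons, read 2.99, 2.81, 3.07 and 2.91 on occlusion and 2.58, 2.23, 2.22 and 2.52 on control arrays, which did not overlap, and differed by 0.56 (SE 0.12). Gng3, a gamma subunit, stood at 0.55 (SE 0.18), against Gnai3 at -0.33 (SE 0.15) and Gnai1 at -0.50 (SE 0.33). Groups did not overlap for 3 of these 17 genes, among them Gnai3 with occlusion lower, against 6.71% of all kept probes. Of 16 receptors and transducers that close TASK channels through Gq 9 were higher and 7 lower (median 0.11). Adra1b stood at 1.30 (SE 0.56, n = 3 and 4) and the phospholipase Plcb4 at 0.86 (SE 0.42, n = 2 and 3), against the serotonin receptors Htr2a at -1.45 (SE 0.29) and Htr2c at -0.86 (SE 0.47).

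**Figure D4:**
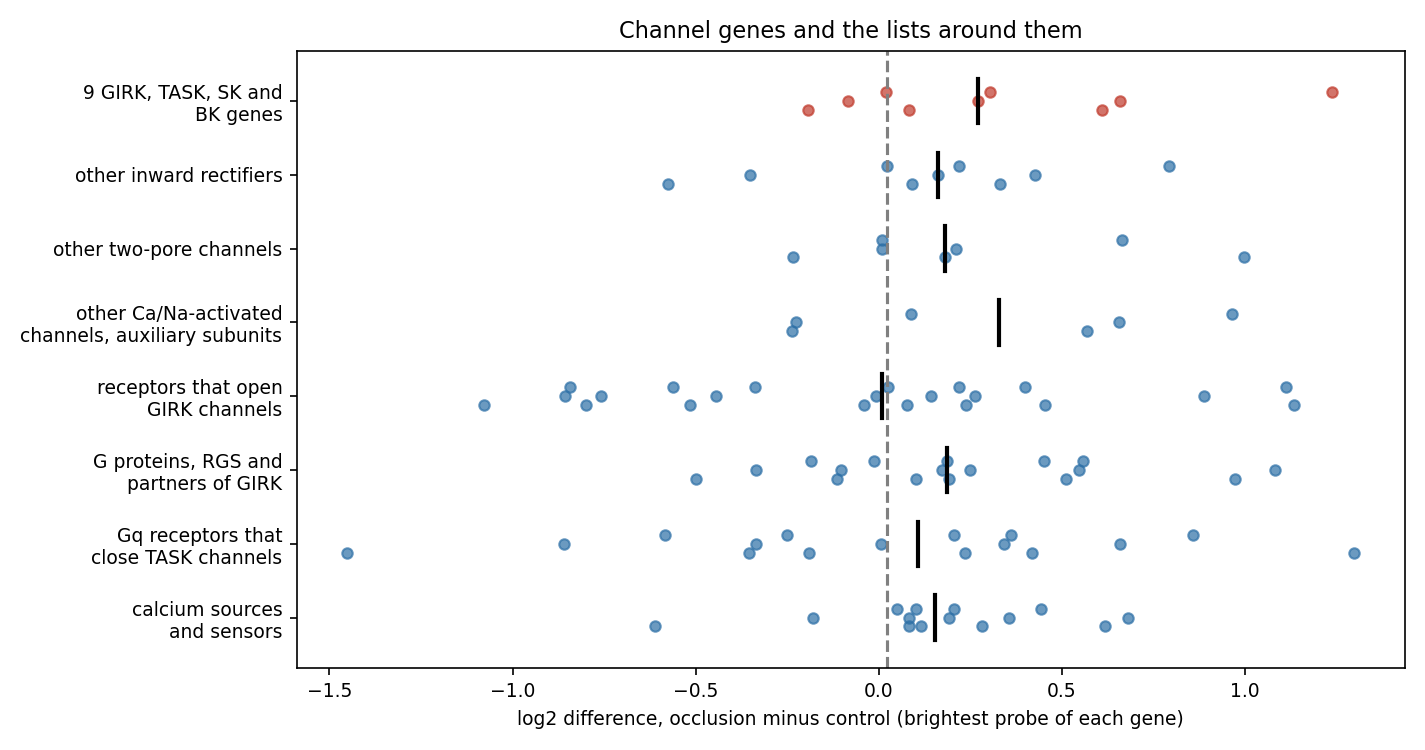
Each point is 1 gene by its brightest kept probe, placed by its log2 difference, occlusion minus control; black bars are list medians and the dashed line is the median of all kept probes (0.02). The 9 channel genes run from -0.19 (Kcnn1) to 1.24 (Kcnj9), within the range spanned by the lists around them. At the upper end only Adra1b, at 1.30 (SE 0.56), lies above Kcnj9.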

How the data were processed

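RNA of the medial thalamus (1 µg per rat) was Cy3-labelled for 8 Agilent arrays, 1 per rat. These were scanned in 1 channel and quantified by the authors with Feature Extraction 9.5.1.1, per the file headers. For each spot it reports a raw intensity, its local background, flags, and the processed intensity after background subtraction and spatial detrending. A reference design is mentioned in the series, but no second channel was used here. The combined table that was deposited differed from the scanner files' processed intensity by less than 1% at every spot.

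Processed intensity was put on a log2 scale and each array's 75th percentile over non-control spots subtracted. Control spots and outlier-flagged spots were left out and spots of a probe averaged. A probe was kept with at least 4 of the 8 arrays well above background and at least 2 values per group. Groups were compared in R 4.3.3 by the moderated statistic of limma 3.58.1 (two-sided, lmFit, then eBayes). Benjamini-Hochberg adjustment ran over every kept probe, with a threshold of 0.05. The fit was tested on simulated data with the probes' own spread. There 44 of 100 log2 changes of 1 and 88 of 100 log2 changes of 2 passed, and 13 unchanged probes of 26054 simulated passed as well. A change of 1 log2 unit could therefore often be missed. Other genes were named through RefSeq by accession (10735 probes), symbol (5571) or synonym (3729), and 20977 probes stayed unnamed. The brightest probe stood for a gene. Named genes are all member probes, the 2 highest and 2 lowest statistics of each list, and the 3 nearest patterns of 3 members. Gad1, Gpr151, Calca, Emx2, Prox1 and Cux2 were added after their values were seen. Members and lists were chosen with earlier results of these data known. The deviations of same-numbered arrays correlated at 0.35, 0.51, -0.07 and -0.30, so the numbers were not taken as pairs. They followed the slide instead. Every pair of an occlusion and a control array correlated at 0.12 to 0.51 on the same slide and at -0.42 to -0.07 on different slides. The main fit left slide out, and slide as a block was an alternative. The alternatives were other normalisations, background correction, filters, slides, a replicate block and leaving out each array.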

Additional observations from a re-analysis of the deposited data

Results flagged for a closer look

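In 28 groups of 4 arrays (14 probes, 2 groups each) 2 had an array far from the other 3, and chance flags about 1 in 20. For Kcnma1 probe A_44_P259947 it was occlusion 3, at -0.82 against 0.26 to 0.36 on the other occlusion arrays, a gap of 0.911 of the group's range. For the dim Kcnj3 probe A_44_P247906 it was also occlusion 3, at -3.79 (gap 0.874), the single occlusion array on which this probe was well above background. The habenula marker mean on occlusion 3 was -3.64 against -1.21 to -0.51 on the other occlusion arrays, and its part in the Kcnma1 value was not tested.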

How the results depend on the processing

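Of 215 values of the 12 kept probes over 18 alternative settings, 200 kept their direction and 15 did not, 11 of these where 1 array was left out; no member probe passed under any of them, with limma adjusted p from 0.139 (Kcnj9 without control 4) upward. The cause of the turns was not tested. Kcnj3 probe A_44_P452282 read -0.016 with quantile normalisation and -0.57 on slide 1 alone, and -0.29 to 0.28 as each array was left out. Slide 1 alone also turned Kcnj6 (-0.11) and Kcnn2 (-0.039). Leaving out 1 array moved Kcnj6 from -0.041 to 0.18, Kcnk9 from -0.22 to 0.068 and Kcnn2 from -0.12 to 0.21. Kcnj9 kept its direction in all 18, from 0.72 on slide 1 alone to 1.75 on slide 2 alone.

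Normexp background correction called 1 of all probes, listed under XM_215473 and chosen for naming after its value was seen (1.24, adjusted p = 0.0478); the other 17 settings called 0. On slide 1 alone 1768 probes and 1 member probe stood at an unadjusted p under 0.05, against 3010 and 3. Leaving out each array gave 2042 to 3970 probes and 1 to 4 member probes. With slide as a block 0 probes passed, with 3867 probes (14.2%) and 3 member probes at an unadjusted p under 0.05. Kcnj9 then differed by 1.24 (SE 0.25, limma adjusted p = 0.242), the smallest adjusted p of any probe in that setting. With the replicate number as a block 0 probes passed, with 2760 probes and 3 member probes at an unadjusted p under 0.05. A filter that asked for all 8 arrays to be well above background left Kcnj3 probe A_44_P452282 without a value.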
